A study of Mus musculus with 23 samples.

Results

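The genes that encode the constitutive subunits of the proteasome and its regulators were examined in mouse skeletal muscle. Members were the protein-coding rows of the deposited table whose GENCODE symbol begins with Psma, Psmb, Psmc, Psmd or Psme and a digit, leaving out the immunoproteasome genes Psmb8, Psmb9 and Psmb10. The rule found 40 of the 14500 genes in the table, and all 40 were among the 12820 genes tested, those that reached an FPKM of 1 in 2 or more libraries. FPKM is the number of fragments per kilobase of transcript scaled for depth, a level per length. Another 2 annotated symbols that match, Psma8 and Psmb11, were not analysed here. By role, the 40 genes are 7 alpha-ring and 7 beta-ring subunits of the 20S core, 6 ATPases, 3 other base subunits and 8 lid subunits of the 19S regulator, 3 assembly chaperones with Psmd symbols and 4 genes of other activators. The other 2 matches are Psmc3ip, which is a recombination factor and no proteasome subunit, and Psme2b, a close copy of Psme2.

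The study asked how removal of sympathetic nerves affects the muscle clock, and measured total RNA of whole tibialis anterior muscle from female C57BL/6 mice fed ad libitum, in 23 libraries. 6-OHDA is a toxin taken up by catecholaminergic nerve endings; it was given into the muscle at 50 mg/kg over 2 weeks and followed by 2 weeks of recovery, whereas the sham muscle had no injection. Wild-type 6-OHDA muscle had 4 libraries at ZT0 and 4 at ZT12 (12 to 16 weeks of age), and wild-type sham muscle had 4 at ZT0 and 3 at ZT12 (12 to 18 weeks). RE-RE 6-OHDA muscle had 2 libraries at each time (12 to 18 weeks), and RE-RE sham muscle had 2 at each time (10 to 11 weeks). RE-RE mice carry Bmal1(stopFL/stopFL), Syt10-Cre(-/tg) and Hsa-Cre(-/tg), a Bmal1 gene blocked by a stop cassette that Cre removes in 2 places, skeletal muscle (Hsa-Cre) and Syt10-expressing neurons, among them those of the suprachiasmatic nucleus. ZT0 is lights on and ZT12 lights off. The sham muscle therefore controls neither for the injections nor for the ascorbic acid vehicle, and in RE-RE mice treatment and age cannot be told apart. The labels do not tie libraries to animals, so p-values measure the spread between these libraries.

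The proteasome degrades proteins that carry ubiquitin chains. Its core is a barrel of alpha and beta rings, with the cutting sites on Psmb5, Psmb6 and Psmb7, and the 19S regulator at its ends binds the chain, removes it and threads the substrate in through a ring of ATPases. In muscle it breaks down myofibrillar proteins, and its subunit genes are known to be induced together by the transcription factor Nrf1 (gene Nfe2l1) when proteasome activity is short, through an antioxidant response element in their promoters.

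Promoters of 3 beta-ring genes that were lower in wild-type 6-OHDA muscle are shown because this group had the most genes past the test. They are RefSeq windows of build GRCm38.p6, 250 bases before to 50 after the gene start, on the gene's strand. Capitals mark TGACNNNGC, a core of the antioxidant response element, or CCAAT, the CCAAT box, searched on both strands.
Psmb6 (chr11:70525107-70525406, + strand): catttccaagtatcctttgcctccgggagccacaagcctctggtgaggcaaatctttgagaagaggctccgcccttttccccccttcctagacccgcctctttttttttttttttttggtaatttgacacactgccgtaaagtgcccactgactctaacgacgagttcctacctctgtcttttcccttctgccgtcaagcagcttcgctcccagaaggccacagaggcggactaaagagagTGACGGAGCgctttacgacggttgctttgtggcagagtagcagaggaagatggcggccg
Psmb5 (chr14:54617946-54618245, - strand): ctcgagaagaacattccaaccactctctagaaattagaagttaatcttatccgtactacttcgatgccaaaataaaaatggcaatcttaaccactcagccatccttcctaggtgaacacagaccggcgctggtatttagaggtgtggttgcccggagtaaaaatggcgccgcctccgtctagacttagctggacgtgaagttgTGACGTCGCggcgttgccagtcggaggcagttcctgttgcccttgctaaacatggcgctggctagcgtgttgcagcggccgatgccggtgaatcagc
Psmb3 (chr11:97703184-97703483, + strand): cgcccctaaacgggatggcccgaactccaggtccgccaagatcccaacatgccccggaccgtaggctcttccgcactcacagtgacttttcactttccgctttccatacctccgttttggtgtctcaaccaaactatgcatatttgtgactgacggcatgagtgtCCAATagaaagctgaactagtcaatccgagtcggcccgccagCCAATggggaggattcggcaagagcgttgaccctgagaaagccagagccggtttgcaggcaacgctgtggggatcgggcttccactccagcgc
Psmb6 and Psmb5 each hold 1 TGACNNNGC match, and Psmb3 holds 2 CCAAT matches. Promoter windows were found for 34 of the 40 genes. TGACNNNGC stood in 6 of the 34 (17.6%), against 17.1% of 9107 tested genes with a window. The 6 genes were Psmb5, Psmb6, Psmc6, Psmd12, Psmd9 and Psme4. CCAAT stood in 13 of 34 (38.2%), against 42.2%, and the E-box CACGTG in 3 of 34 (8.82%), against 12.0%, so each motif was about as frequent in these windows as in those of all tested genes. A match describes letters in a window and is not a known site.

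Reads recovered from the steps in the table came to 21.1 M to 36.1 M per library, and 38 of the 40 genes had at least 100 reads in every library. Bmal1 (Arntl), the targeted gene, was at 11.0 and 14.3 FPKM in RE-RE sham muscle at ZT0, against 11.7 to 15.7 FPKM in wild-type sham muscle at ZT0. RE-RE libraries of a group differed by over 1 log2 unit at 11.6% to 23.7% of tested genes, against 3.28% to 10.4% in wild-type pairs. RE-RE sham replicates 1 (ZT0) and 3 (ZT12) and RE-RE 6-OHDA replicate 2 (ZT0) stood apart. With 2 libraries a group, the distance within a pair cannot show which library differs. These 3 also had the highest medians of the 40 genes among RE-RE libraries, so medians of the 40 without them depend in part on that choice. Their recovered reads were 1.47, 1.52 and 1.36 times the reads that the FPKM unit implies. The other 20 libraries had 0.839 to 1.34 times, so 6-OHDA replicate 2 was only just above them. This ratio averaged 0.981 in wild-type 6-OHDA and 1.24 in wild-type sham libraries, so the scale between treatments depends on how the deposited values were normalised.

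Levels of the constitutive genes were high. In wild-type sham muscle 37 of the 40 stood above the median of all tested genes, 3.89 FPKM. Psmb7, the subunit with the trypsin-like site, was highest at 192 ± 28.5 FPKM (SD, n = 7), and its lowest library lay above every library of the next gene, Psmb5, the chymotrypsin-like subunit, at 126 ± 10.3 FPKM. From Psmb5 down to Psmd11 the ranges of neighbouring genes overlapped. The 14 core genes, whose proteins enter each barrel in equal numbers, spanned 7.29-fold in FPKM, down to Psma3 at 26.4 ± 2.76 FPKM. Such comparisons between genes rest on the exon length, 3894 bases for Psma3 and 899 for Psmb5 in the annotation used here. Recovered reads per library ranged from 1929 to 3024 for Psma3 and from 1884 to 3468 for Psmb5. The order and span of genes in FPKM thus depend in part on annotated length. ATPase genes lay between 24.0 FPKM (Psmc2) and 86.3 FPKM (Psmc1), and lid genes between 14.3 FPKM (Psmd11) and 89.2 FPKM (Psmd7). Among the activators, Psme4, which encodes PA200, had 36.9 FPKM and Psme2, a PA28 subunit, 9.49 FPKM. The chaperones Psmd10, Psmd5 and Psmd9, at 5.53, 2.97 and 2.82 FPKM, Psme2b at 4.11 FPKM and Psmc3ip at 1.16 FPKM were at the bottom. Psmc3ip had as few as 27 reads in a library.

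**Figure D1:**
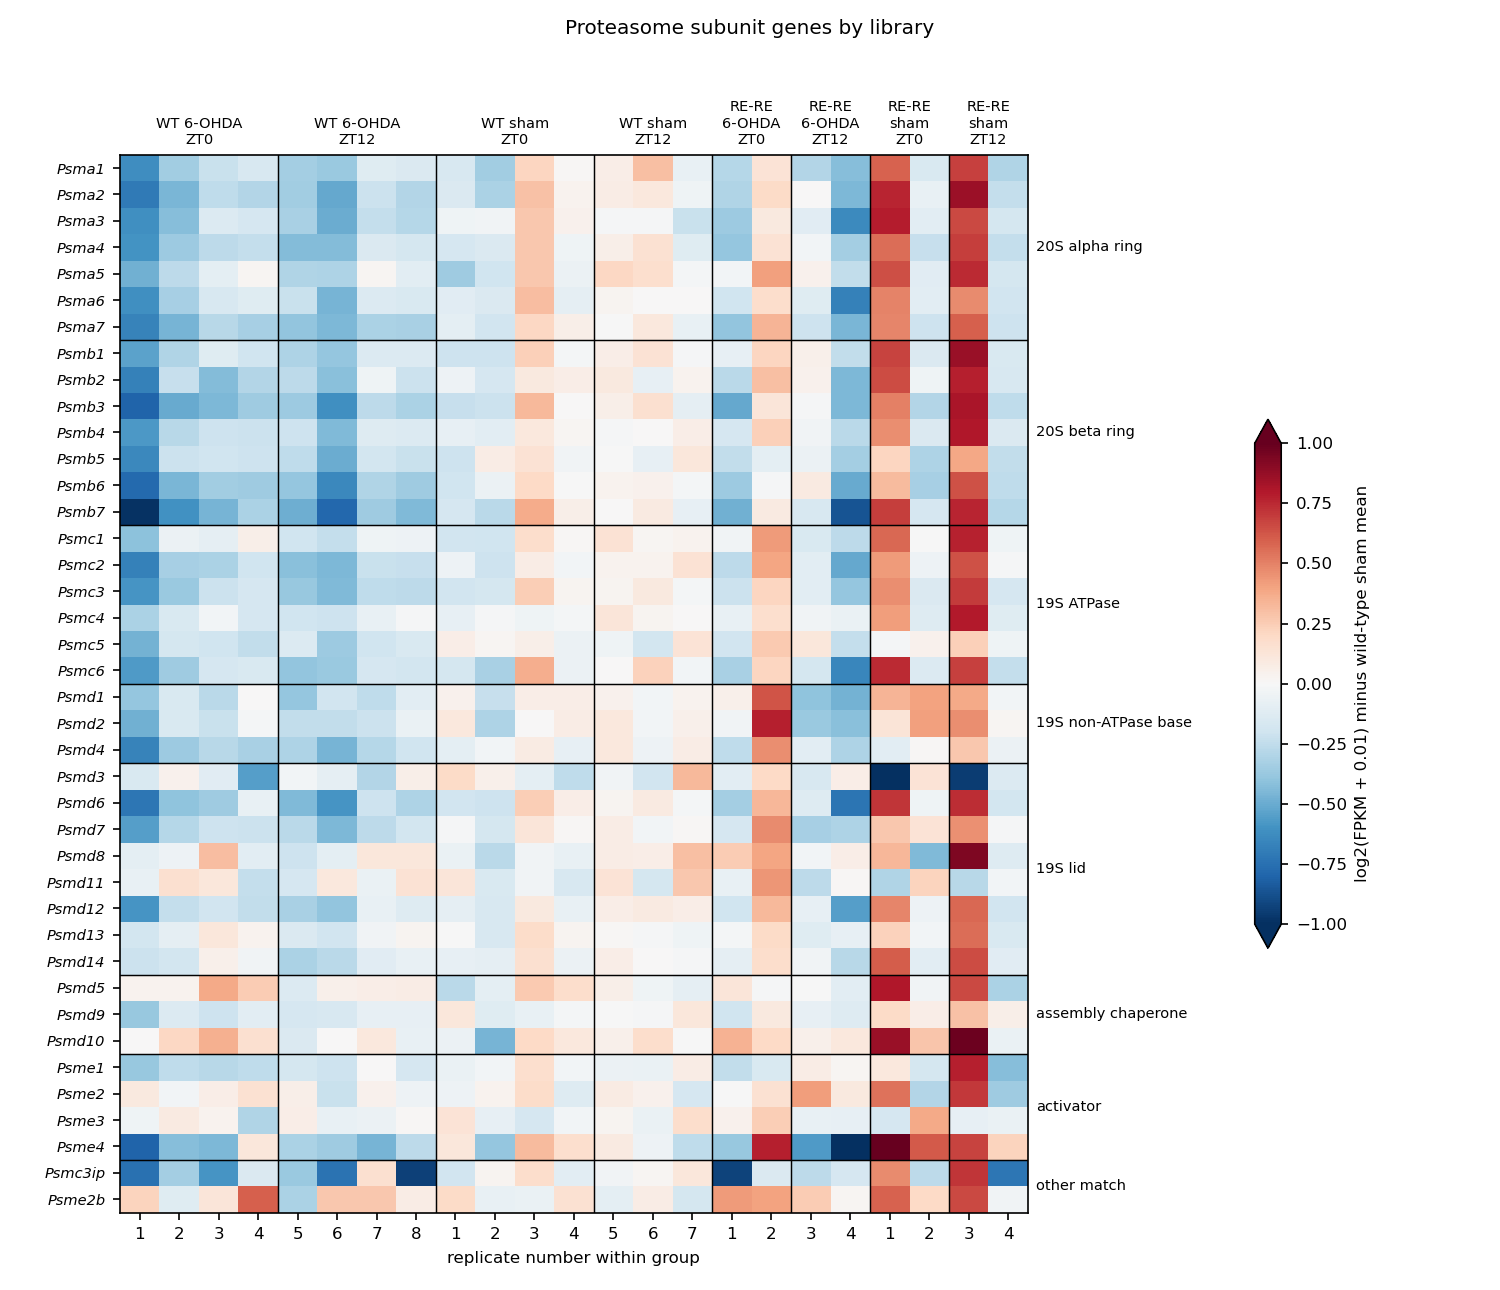
Each cell is the log2(FPKM + 0.01) of 1 gene in 1 library minus the gene's mean over the 7 wild-type sham libraries, for the 40 genes by role (rows) and the 23 libraries by group (columns); colours saturate at ±1. Most rows are blue in wild-type 6-OHDA libraries and red in RE-RE sham replicates 1 and 3, where Psmd3 is blue.

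On the deposited scale, 9 of the 40 genes were lower in 6-OHDA than in sham wild-type muscle over both times and none was higher (limma, Benjamini-Hochberg adjusted p under 0.05 over 12820 genes). They were the core genes Psma7, Psmb3, Psmb5, Psmb6 and Psmb7, the ATPase genes Psmc2 and Psmc5, and the regulator genes Psmd4 and Psmd7. The falls were small, 1.18-fold to 1.47-fold. The count was 2 without any single one of sham replicate 3 and 6-OHDA replicates 1 and 6, 4 without sham replicate 5 and 5 without sham replicate 6. The shares of all tested genes called in those fits are not given here, so a change particular to these genes cannot be read from the counts. With all libraries, 34.8% of all tested genes passed in either direction and 15.9% were lower, against 22.5% of the 40. The 40 genes had a median difference of -0.28 (log2), with 36 below 0, against -0.04 over all tested genes. In bulk muscle, fewer cells of a type and less RNA per cell cannot be told apart.

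In the beta ring, 4 of 7 genes passed and all 7 differences lay between -0.56 and -0.27. Psmb6, the caspase-like subunit (ENSMUSG00000018286, chr11:70525367-70527858, + strand), ranged from 42.9 to 59.6 FPKM with a median of 56.9 in the 8 wild-type 6-OHDA libraries, against 64.0 to 84.5 FPKM with a median of 73.4 in the 7 wild-type sham libraries. All 6-OHDA libraries lay below all sham libraries, and the difference was -0.46 ± 0.14 (log2, SE; limma adjusted p = 0.018). Psmb7 had the largest fall of the 40, -0.56 ± 0.18 (adjusted p = 0.023), with 95.9 to 153 FPKM in 6-OHDA and 158 to 246 FPKM in sham libraries. The structural subunit Psmb3 followed at -0.46 ± 0.16 (adjusted p = 0.0341). A share of 11.8% of the Psmb7 exon bases overlaps Nek6 on the opposite strand, and whether reads were counted by strand is not given in the sources used here.

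The alpha ring, which gates the barrel, had 1 of 7 genes past the test and all 7 below 0 (-0.40 to -0.20). Psma7 (ENSMUSG00000027566, chr2:180036374-180042433, - strand) had a lowest, median and highest FPKM of 19.8, 24.5 and 26.1 in 6-OHDA libraries, against 27.6, 31.4 and 36.3 in sham libraries. These ranges did not meet, and the difference was -0.40 ± 0.14 (adjusted p = 0.0278). Psma2 and Psma4 did not pass, at -0.39 ± 0.16 (adjusted p = 0.066) and -0.33 ± 0.14 (adjusted p = 0.0789).

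Of the 6 ATPases that unfold substrates, 2 passed. Psmc2 (ENSMUSG00000028932, chr5:21785283-21803787, + strand) had a lowest, median and highest FPKM of 15.0, 19.1 and 20.8 with 6-OHDA, against 20.7, 24.5 and 26.5 in sham libraries, ranges that overlapped by 1 library each. Its difference was -0.36 ± 0.12 (adjusted p = 0.0279). Psmc5 was lower by a smaller amount, -0.24 ± 0.09 (adjusted p = 0.0469), and Psmc3 at -0.34 ± 0.13 missed the threshold (adjusted p = 0.0519).

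Psmd4, a ubiquitin receptor of the base (ENSMUSG00000005625, chr3:95032694-95042614, - strand), had the smallest p of the 40 genes. Its lowest, median and highest FPKM were 33.1, 42.3 and 45.9 in 6-OHDA libraries, against 49.2, 51.5 and 56.6 in sham libraries. The groups were apart, with a difference of -0.37 ± 0.10 (adjusted p = 0.0102). The scaffold genes Psmd1 and Psmd2, at -0.22 ± 0.10 and -0.21 ± 0.12, did not pass.

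The lid removes the ubiquitin chain, and its 8 genes had differences between -0.39 and -0.01. Psmd7, the partner of the deubiquitinase Psmd14 (ENSMUSG00000039067, chr8:107580381-107588464, - strand), was the 1 gene that passed, with 60.8, 74.0 and 78.3 FPKM as lowest, median and highest in 6-OHDA libraries, against 78.8, 89.8 and 96.95 FPKM in sham libraries. That is a difference of -0.31 ± 0.10 (adjusted p = 0.0255), with no overlap of the groups. Psmd6 (-0.39 ± 0.16, adjusted p = 0.0637) and Psmd12 (-0.28 ± 0.13, adjusted p = 0.0847) did not pass. Psmd11, Psmd8 and Psmd13 were near 0, at -0.01, -0.02 and -0.06, with 95% intervals from -0.25 to 0.22, -0.32 to 0.27 and -0.26 to 0.14.

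No chaperone, activator or other match passed the limma test, and 3 of these 9 genes had an unadjusted p under 0.05. Psmd9 ranged from 2.17 to 2.66 FPKM in 6-OHDA and from 2.59 to 3.06 FPKM in sham libraries, -0.17 ± 0.08 (adjusted p = 0.0992). A share of 25.5% of the Psmd9 exon bases overlaps Gm26745 on the opposite strand. Psmd5 and Psmd10 had differences of 0.10 ± 0.14 and 0.07 ± 0.14. Psme4 ranged from 20.9 to 39.5 FPKM in 6-OHDA and from 27.8 to 45.5 FPKM in sham libraries, -0.36 ± 0.17 (adjusted p = 0.102). The PA28 gene Psme1 stood at -0.21 ± 0.12 and the nuclear activator gene Psme3 at -0.04 ± 0.09. Psmc3ip, 21.2% of whose exon bases overlap Mlx on the opposite strand, had 0.601 to 1.29 FPKM in 6-OHDA and 1.01 to 1.31 FPKM in sham libraries, -0.47 ± 0.21. Psme2b had 0.15 ± 0.13, an uncertain value, since the authors' counting could split reads between it and its close copy Psme2.

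**Figure D2:**
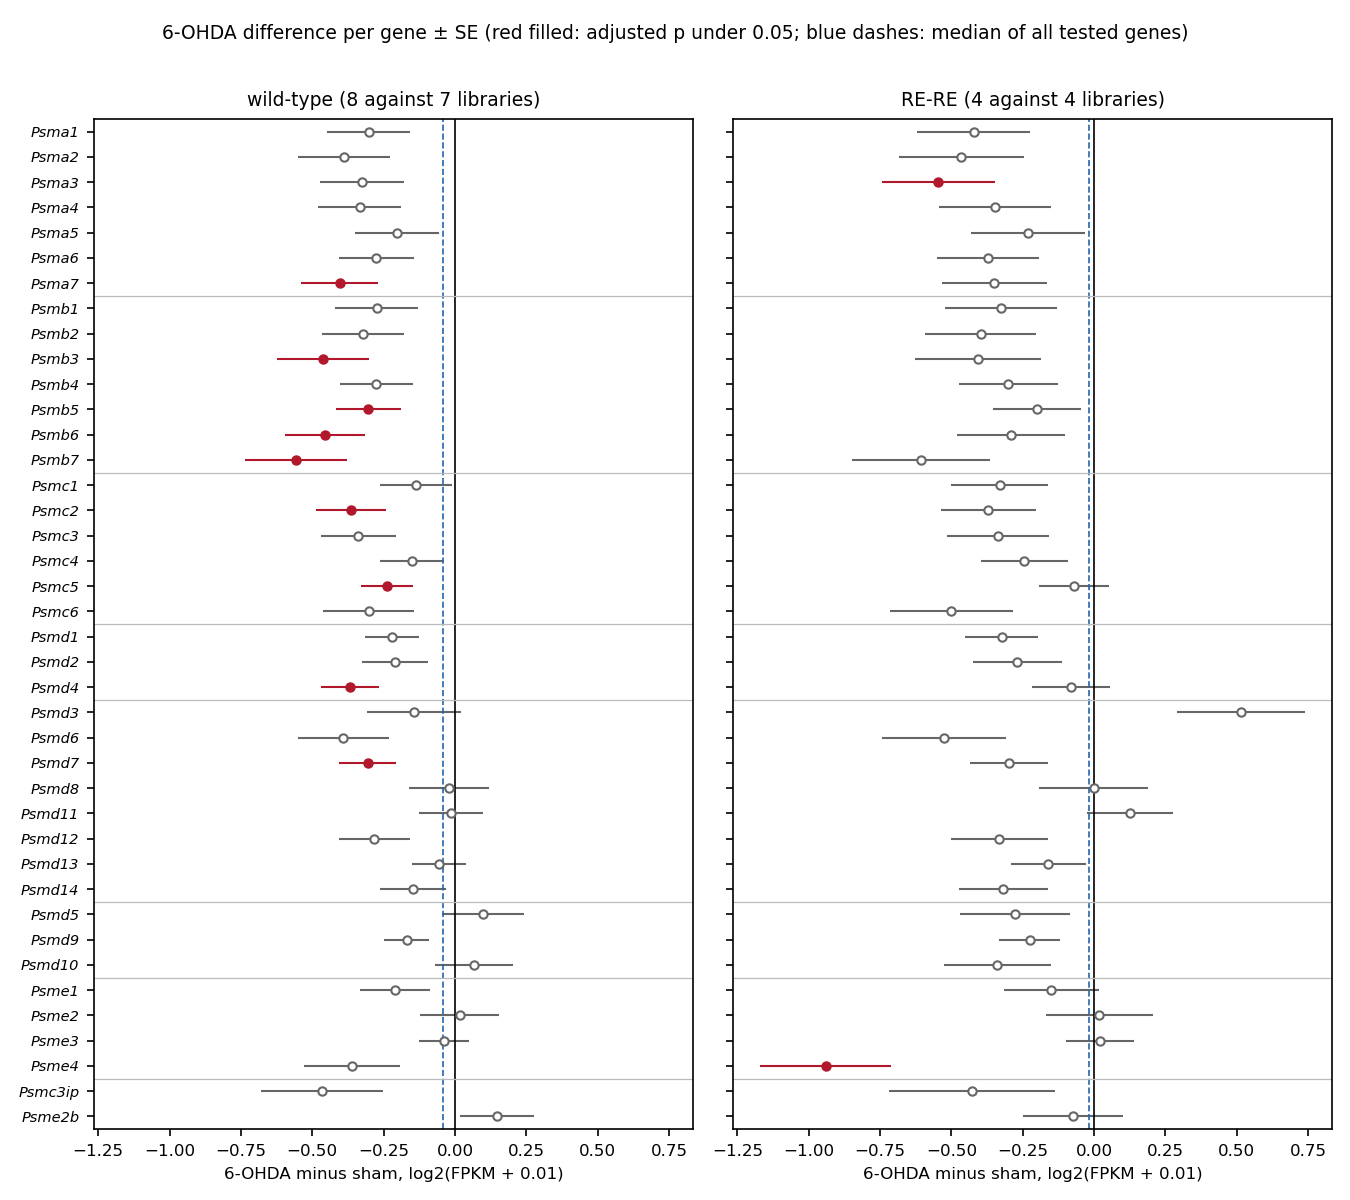
Each point is the 6-OHDA minus sham difference of 1 gene in log2(FPKM + 0.01) with its SE from limma, in wild-type (left) and RE-RE muscle (right); filled red points have an adjusted p under 0.05 and the blue dashed line is the median of all tested genes. In wild-type muscle 9 points are filled, all below 0; in RE-RE muscle Psma3 and Psme4 are filled and Psmd3 lies at 0.51.

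The 6-OHDA libraries lay entirely below the sham libraries for 7 of the 40 genes (17.5%), against 5.87% of all tested genes. With wild-type libraries fitted alone, where the spread is smaller, 28 of the 40 genes (70.0%) were lower, against 27.7% of all tested genes, and none was higher. The direction depended on the scale between libraries. Where each library was scaled by its own total of recovered reads, no gene of the 40 was lower and 6 (15.0%) were higher, against 39.9% of all tested genes that were higher, since the median of all tested genes then stood at 0.29 and that of the 40 at 0.06. Scaling by the sum of FPKM outside the mitochondrial genome gave 5 higher and 0 lower, with medians of 0.26 over all genes and 0.02 over the 40. On these scales and with median centring the 40 lay 0.23 below the median of all tested genes, as on the deposited scale. Under quantile normalization both medians were -0.07, and 7 of the 40 were lower. For this scale and the sum of FPKM, the share of all tested genes called is not given here.

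**Figure D3:**
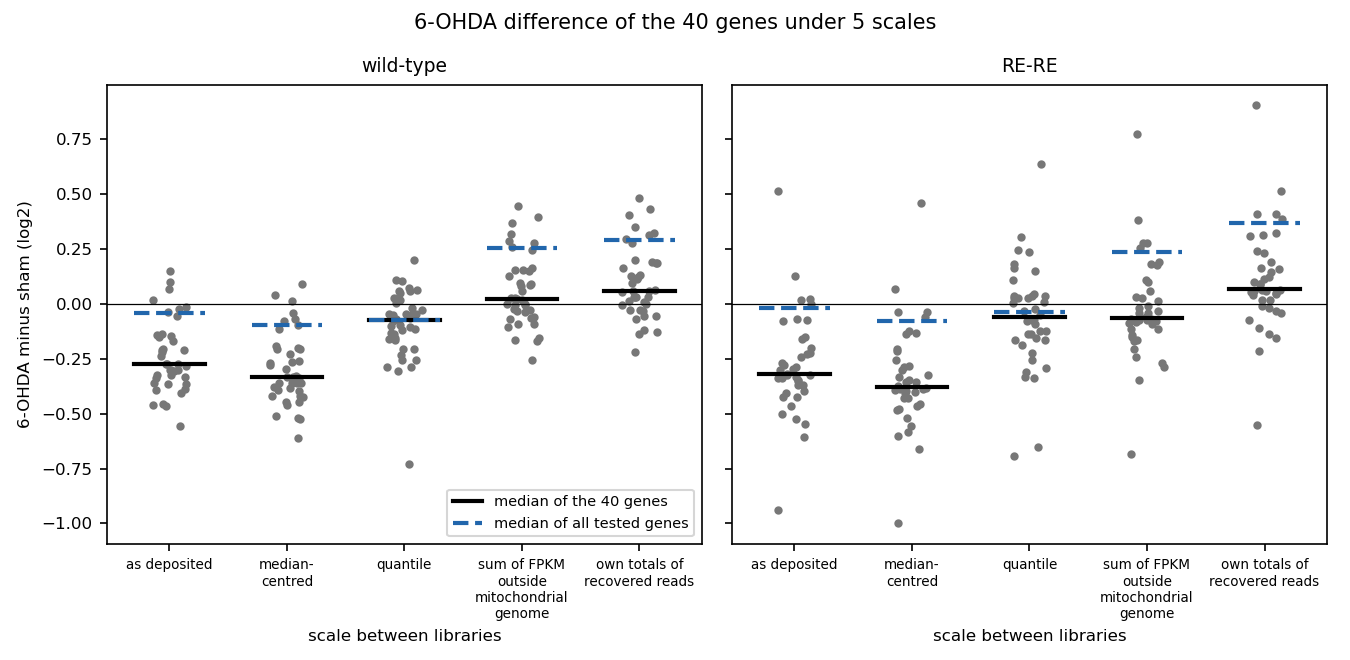
Grey points are the 6-OHDA minus sham differences (log2) of the 40 genes in wild-type (left) and RE-RE muscle (right) under 5 scales between libraries; black bars are their medians and blue dashed bars the medians of all tested genes. The sign of the median changes with the scale; the 40 genes lie below all tested genes except under quantile normalization, where the medians are close.

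The size of the difference went with the level of a gene. On the deposited scale, the 1597 tested genes with a mean log2 value of 4 to 6 had a median 6-OHDA difference of -0.24 in wild-type muscle, and the 19 members among them -0.30. The 425 genes from 6 to 8 had a median of -0.34, and their 13 members -0.30. The 4084 genes from 2 to 4 had a median of -0.08, and their 5 members 0.02. The 4622 genes from 0 to 2 had a median of 0.06, and their 3 members -0.17. In the upper ranges, which hold 32 of the 40 genes, the medians of members and of all genes were thus close, and the low median of the 40 went with their high level.

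Cell markers differed with treatment as well. Of the 10 fast-fibre marker genes, 6 were lower and 1 higher in wild-type 6-OHDA muscle, with a median of -0.58, and their summed level was 43984 to 63466 FPKM, against 68888 to 83658 FPKM in sham libraries. Macrophage markers (9 of 9 tested higher) summed to 111 to 415 FPKM in 6-OHDA and 19.5 to 49.1 FPKM in sham libraries. Fibroblast and matrix markers (8 of 8 higher) summed to 482 to 1611 FPKM, against 129 to 338 FPKM, and regenerating-fibre markers (9 of 10 higher) to 54.1 to 214 FPKM, against 34.5 to 52.7 FPKM. Schwann cell markers (4 of 6 higher) came to 29.1 to 45.1 FPKM, against 14.1 to 30.5 FPKM. Proliferation (4 of 5) and adipocyte markers (3 of 4) were higher and red blood cell markers (3 of 5) lower. Of 6 endothelial markers 1 was higher, near the share of all tested genes, 2414 of 12820. Among these lists, only the adipocyte gene Lep was at 0 in a wild-type library. The part of these differences in those of the constitutive genes was not tested.

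The 3 catalytic subunits each have an inducible counterpart that replaces them in the immunoproteasome, so the ratio within a library does not depend on the scale between libraries. These ratios were chosen after the values were seen. Each sets a gene of lower level against one of higher level. Over all tested genes, the wild-type 6-OHDA difference on the deposited scale also went with level. Its median was 0.06 at a mean log2 value of 0 to 2, -0.08 at 2 to 4 and -0.34 at 6 to 8. The part of this trend in the ratios was not tested. In wild-type muscle, the log2 ratio of Psmb8 to Psmb5 ranged from -5.59 to -4.95 (median -5.28) in 6-OHDA and from -6.61 to -5.64 (median -6.17) in sham libraries. Every 6-OHDA library lay above every sham library, a ratio 1.82-fold higher (exact permutation of treatment within time, two-sided p = 0.000408, the smallest possible, adjusted p = 0.00245 over 6 tests). Psmb10 to Psmb7 was 1.73-fold higher, above all sham libraries in 7 of 8 6-OHDA libraries (exact p = 0.000816, adjusted p = 0.00245). Psmb9 to Psmb6 was 1.63-fold higher with overlapping groups (exact p = 0.00612, adjusted p = 0.0122).

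On the deposited scale the constitutive gene of each pair was lower, as given above, and 1 of the 3 inducible genes was higher. Psmb8, the counterpart of Psmb5, was higher by 0.56 ± 0.14 (limma adjusted p = 0.00701), with 2.18 to 3.03 FPKM in 6-OHDA and 1.38 to 2.63 FPKM in sham libraries. In RE-RE muscle Psmb8 was higher by 0.59 ± 0.19 (limma adjusted p = 0.0356), but treatment and age cannot be told apart there. Its RE-RE values overlapped, at 1.66 to 3.68 FPKM in 6-OHDA and 1.34 to 2.47 FPKM in sham libraries. Whether this call holds with age as a covariate or with RE-RE libraries alone is not given here. In wild-type muscle Psmb10 and Psmb9 had 0.23 ± 0.14 and 0.25 ± 0.19 and did not pass. Per length, the inducible genes stayed far below the constitutive ones, as the negative log2 ratios show. In RE-RE muscle the 3 ratios were 1.73-fold, 1.58-fold and 1.69-fold higher for Psmb8, Psmb9 and Psmb10, with 3 of 4 6-OHDA libraries above all sham libraries each time. The exact p-values were 0.0556, 0.222 and 0.111, and 0.0556 is the smallest this design allows.

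**Figure D4:**
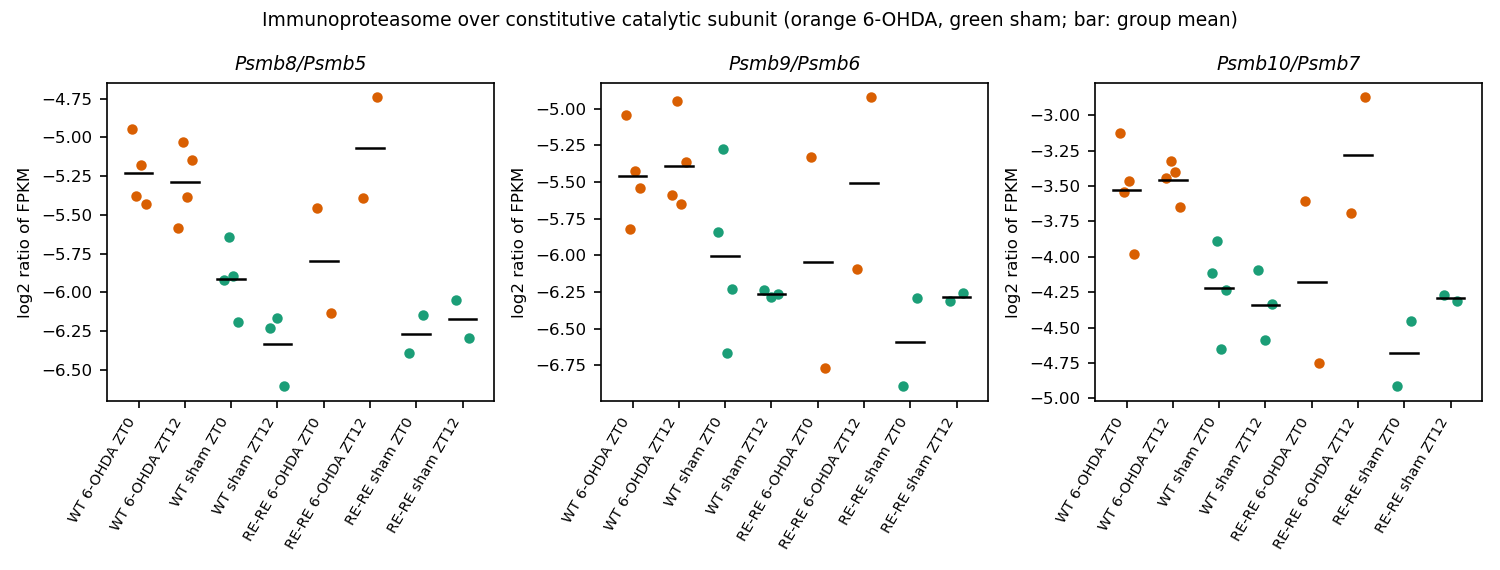
Each point is the log2 ratio of the FPKM of an immunoproteasome subunit to that of the constitutive subunit it replaces in 1 library, by group, with the group mean as a bar; orange is 6-OHDA and green sham. For Psmb8 to Psmb5 every wild-type 6-OHDA library lies above every wild-type sham library.

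Taken by time, none of the 40 genes passed at ZT0 (23.8% of tested genes did) or at ZT12 (0.0156% did) in the limma fit, and 7 and 4 genes had an unadjusted p under 0.05. The medians were alike in size, -0.28 at ZT0 and -0.26 at ZT12. Psmd4 and Psmb6 had the smallest p at ZT0, at -0.38 ± 0.14 and -0.47 ± 0.19 (adjusted p = 0.0518 and 0.0766), and Psmd4 and Psmc2 at ZT12, at -0.36 ± 0.15 and -0.40 ± 0.18 (adjusted p = 0.191 and 0.217). The change of the time difference with 6-OHDA passed for none of the 40 (0.0078% of tested genes passed; no member had an unadjusted p under 0.05). Psmd10 and Psmd8 came first, at -0.34 ± 0.27 and -0.29 ± 0.28.

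In RE-RE muscle, 2 of the 40 genes were lower with 6-OHDA and none higher, against 26.9% of tested genes called in either direction and 15% lower. Psme4, the proteasome activator PA200 (ENSMUSG00000040850, chr11:30771726-30880361, + strand), had 28.0 and 62.6 FPKM at ZT0 and 24.5 and 17.7 FPKM at ZT12 in RE-RE 6-OHDA muscle, against 74.8 and 55.8 FPKM at ZT0 and 58.3 and 42.4 FPKM at ZT12 in RE-RE sham muscle. All but 1 of the 6-OHDA libraries lay below all sham libraries, a difference of -0.94 ± 0.23 (limma adjusted p = 0.0162). Without the 3 libraries that stood apart it was -1.01 (adjusted p = 0.00864). The call was lost with age as a covariate (adjusted p = 0.122) and with RE-RE libraries fitted alone (adjusted p = 0.357), and without any single one of RE-RE sham replicates 1 and 3 and RE-RE 6-OHDA replicates 1 and 4 (adjusted p = 0.0657 to 0.12).

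Psma3, an alpha-ring gene, had 20.3 and 28.1 FPKM at ZT0 and 24.2 and 16.9 FPKM at ZT12 in RE-RE 6-OHDA muscle, against 45.1 and 24.4 FPKM at ZT0 and 41.5 and 23.3 FPKM at ZT12 in RE-RE sham muscle. The groups overlapped and the high values were those of sham replicates 1 and 3. Its difference of -0.55 ± 0.20 (limma adjusted p = 0.0486) was -0.23 without the 3 libraries (adjusted p = 0.32) and lost its call with the replicate number as a block (adjusted p = 0.0678), where Psme4 kept its call (adjusted p = 0.0465). The median of the 40 genes in this comparison was likewise -0.32 with all 8 libraries and -0.10 without the 3, the same as that of all tested genes then, -0.10. Part of this change follows from the choice, since the 3 had the highest medians of the 40 among RE-RE libraries. Regenerating-fibre markers (8 of 10 higher) summed to 33.5 to 185 FPKM in RE-RE 6-OHDA and 19.95 to 37.7 FPKM in RE-RE sham libraries, where Chrng, Mymk and Mymx were listed at 0 in some. Macrophage markers (0 of 9 called, 1 with an unadjusted p under 0.05) summed to 14.5 to 240 FPKM, against 22.5 to 67.8 FPKM, and fast-fibre markers (0 of 10 called, 4 with an unadjusted p under 0.05) to 46685 to 86362 FPKM, against 72693 to 86183 FPKM. Proliferation markers (4 of 5 higher) summed to 11.7 to 17.2 FPKM, against 8.63 to 19.2 FPKM, endothelial markers (3 of 6 higher) to 96.998 to 111 FPKM, against 40.5 to 89.7 FPKM, and red blood cell markers (1 of 5 lower) to 112 to 177 FPKM, against 165 to 332 FPKM. Fibroblast, adipocyte and Schwann cell markers had 0 of 8, 0 of 4 and 0 of 6 called, with 1, 0 and 0 at an unadjusted p under 0.05. Their part in these results was not tested.

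The genotype change of the 6-OHDA effect passed for no member (0.0702% of tested genes passed in the limma fit). Psmd3 was the 1 member with an unadjusted p under 0.05, at 0.66 ± 0.28 (adjusted p = 0.288), ahead of Psme4 at -0.58 ± 0.28 (adjusted p = 0.351), and without the 3 libraries Psmd3 stood at 0.07.

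RE-RE against wild-type sham muscle gave no call among the 40 genes (9.91% of tested genes passed), and 5 had an unadjusted p under 0.05. RE-RE sham mice (10 to 11 weeks) and wild-type sham mice (12 to 18 weeks) did not overlap in age, so genotype and age cannot be told apart here. Without RE-RE sham replicate 4, 24 of the 40 genes passed (37.6% of tested genes did), without RE-RE sham replicate 2, 8 passed (33.7% of tested genes did), and without wild-type sham replicate 3, 2 passed (10.2% did). The median difference was 0.21, with 38 genes above 0. It was -0.13 without the libraries that stood apart, with 10 genes above 0. A lower value follows in part from that choice, since the sham libraries left out had the highest medians of the 40. Psme4 and Psmd10, which encodes the chaperone gankyrin, came closest, at 0.65 ± 0.20 and 0.51 ± 0.17 (limma adjusted p = 0.0515 and 0.0582). In 6-OHDA muscle no member passed between genotypes either (0.226% of tested genes passed; 2 members had an unadjusted p under 0.05). Psmd4 and Psmc5 had 0.31 ± 0.12 and 0.23 ± 0.11 (limma adjusted p = 0.423 and 0.537), and the median was 0.15.

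In RE-RE sham replicates 1 and 3 the median of the 40 genes stood 0.49 and 0.67 (log2) above the wild-type sham mean, and in RE-RE 6-OHDA replicate 2 0.21 above it, against -0.31 to -0.08 in the other 5 RE-RE libraries. The lid gene Psmd3 went the other way. It had 9.85 FPKM in RE-RE sham replicate 1 and 11.0 FPKM in replicate 3, against 23.3 and 19.3 FPKM in replicates 2 and 4, and 17.9 to 26.6 FPKM in wild-type sham muscle. The lid gene Psmd11 had 11.5 and 11.7 FPKM in sham replicates 1 and 3, against 16.6 and 13.98 FPKM in replicates 2 and 4. Its range in wild-type sham muscle was 12.6 to 17.2 FPKM. The lowest Psmd11 values in RE-RE and wild-type 6-OHDA libraries were close, at 11.9 and 12.0 FPKM. In RE-RE sham replicates 1 and 3 Psmb7 had 308 and 323 FPKM, against 170 and 156 FPKM in replicates 2 and 4. These are values of 2 libraries, and the cause was not tested.

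**Figure D5:**
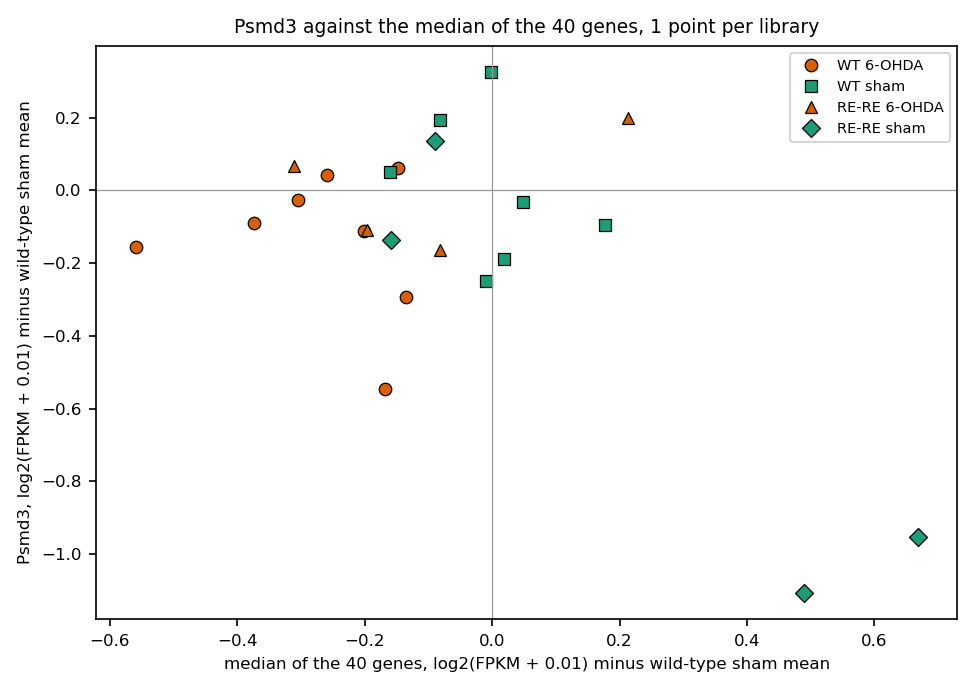
Each point is 1 library, with the median of the 40 genes on the x axis and Psmd3 on the y axis, both as log2(FPKM + 0.01) minus the wild-type sham mean. RE-RE sham replicates 1 and 3 lie at the lower right, with Psmd3 at -1.11 and -0.95.

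The constitutive genes varied together within groups. Over the 15 wild-type libraries, centred on each library's median and on group means, the correlation of a gene with the mean of the other 39 had a median of 0.90, and 36 of 40 genes (90.0%) exceeded 0.5. The same measure exceeded 0.5 for 31.6% of all tested genes and for 65.2% of the 2022 genes with a mean log2 value of 4 to 8. It was highest for Psmb7 (0.98), Psma2 and Psma6 (0.96 each) and lowest for Psmd3 (-0.30), Psme3 (-0.12), Psmd11 (0.09) and Psme2b (0.20). All points share library preparation and scale, and the values are a description.

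No difference between times of day was detected in the constitutive genes. ZT12 against ZT0 passed for none of the 40 genes in wild-type 6-OHDA muscle (0.671% of tested genes passed) or wild-type sham muscle (0.647%), and none had an unadjusted p under 0.05 in either limma fit. Psmd10 (-0.21 ± 0.19) and Psme1 (0.16 ± 0.17) came first with 6-OHDA, and Psmd8 (0.26 ± 0.21) and Psma5 (0.20 ± 0.22) in sham muscle. All 40 estimates lay between -0.21 and 0.17 with 6-OHDA and between -0.14 and 0.26 in sham muscle, with 95% intervals no wider than -0.62 to 0.60 and -0.65 to 0.72. In the same wild-type sham muscle Bmal1 had 1.94 to 2.22 FPKM at ZT12 and 11.7 to 15.7 FPKM at ZT0.

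In RE-RE 6-OHDA muscle no member passed between the times (0.109% of tested genes passed), with 4 at an unadjusted p under 0.05. The median difference was -0.23, with 37 of the 40 genes below 0, against -0.03 over all tested genes. Without replicate 1, 5 of the 40 passed, all lower (12.5%, against 14.1% of tested genes). The scaffold genes Psmd1 and Psmd2 were at -0.78 ± 0.18 and -0.77 ± 0.22 (limma adjusted p = 0.0996 and 0.164). Psmd1 had 14.5 and 13.8 FPKM at ZT12, against 19.9 and 29.7 FPKM at ZT0. The 29.7 FPKM belongs to replicate 2, which stood apart. In RE-RE sham muscle no member passed (0.0546% of tested genes passed; none had an unadjusted p under 0.05), with Psmd8 at 0.46 ± 0.27 and Psme4 at -0.38 ± 0.32. The genotype change of the time difference in sham muscle passed for none (0.0156% of tested genes passed; none had an unadjusted p under 0.05). Psme3 and Psmd1, at -0.26 ± 0.21 and -0.22 ± 0.23, came first.

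Other genes of the pathway, from lists written for this purpose, are given for 6-OHDA against sham in wild-type muscle on the deposited scale. Of all 12820 tested genes, 2044 (15.9%) were lower and 2414 higher in this comparison. Differences also went with level, as given above, and the lists here and in the next paragraph were not matched for level. Of 15 tested assembly and associated factors, 6 were lower and 1 higher. Zfand5, a proteasome-binding factor, fell by 0.68 ± 0.13 and the deubiquitinase Uchl5 by 0.41 ± 0.12 (limma adjusted p = 0.00198 and 0.0168), and Sem1, a small lid subunit whose symbol the rule does not cover, by 0.54 ± 0.17 (adjusted p = 0.0191). Zfand2a, known to be induced by arsenite, rose by 0.43 ± 0.09 (adjusted p = 0.00268). The maturation factor Pomp had -0.35 ± 0.15 and did not pass. Ubb, which encodes a polyubiquitin precursor, was lower, at -0.46 ± 0.12 (adjusted p = 0.00665).

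Of 10 shuttle factors and segregase genes that bring substrates, 4 were lower, Ubqln4, Faf1, Ufd1 and Nsfl1c, between -0.41 and -0.30 (limma adjusted p = 0.0224 to 0.046), and none was higher. Of 11 genes of the Nrf1 pathway, 1 was lower, the glycosyltransferase Ogt at -0.45 ± 0.12 (adjusted p = 0.00719). Nfe2l1 itself was at 0.00 ± 0.09 (95% interval -0.18 to 0.19), and the protease Ddi2 that activates its product had -0.40 ± 0.17 and did not pass. The list's median was 0.00. Of 13 ubiquitin ligases of muscle atrophy, 3 were lower and 1 higher. Fbxo32 (atrogin) was lower by -0.92 ± 0.28 and Trim63 (MuRF) by -0.45 ± 0.14 (adjusted p = 0.0168 and 0.0226), Asb2 by -1.08 ± 0.25 (adjusted p = 0.0044), and Nedd4 was higher by 0.22 ± 0.08 (adjusted p = 0.0337). Of 16 cytosolic chaperone genes, 2 were higher, Dnajb1 by 0.40 ± 0.10 and Hspa1b by 1.23 ± 0.34 (adjusted p = 0.0054 and 0.0102), and none was lower.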

How the data were processed

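The submitters' processing notes name GRCm38 and 5 tools: edgeR 3.30.0, featureCounts 1.6.2, HISAT2 2.1.0, FastQC 0.11.8 and Trim Galore 0.5.0. The authors deposited log2(FPKM + 0.01) for 14500 genes in 23 libraries, and no scaling between libraries is given in the sources used here. Symbols, positions and exon lengths came from GENCODE M21 (GRCm38).

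The deposited values of the 12820 genes that reached an FPKM of 1 in 2 or more libraries were fitted in limma (version 3.58.1, R 4.3.3) with 8 group means, eBayes with trend and Benjamini-Hochberg adjustment. The fit was also run on simulated data with independent noise and 1 spread per gene in all libraries. That run cannot check the fit where genotypes differ in spread or genes vary together. The limma fit pools the genotypes, whose median residual SD over the 40 genes was 0.435 (RE-RE) and 0.157 (wild-type). Its p-values thus understate the error of RE-RE comparisons and overstate that of wild-type ones. FPKM means are linear. Reads were recovered from the steps between small FPKM values, of which 86.6% to 94.8% were whole up to 20 reads within 0.1 read, and serve as a scale and a depth. Tables and plots were made in pandas 2.3.3, matplotlib 3.10.9 and numpy 2.4.6 under python 3.11.15.

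The members, roles, lists and tests were chosen with earlier results of these data known. Named genes are, for 6-OHDA in wild-type muscle, the 3 with the smallest p per role. For other comparisons they are the genes past the test or, with none, the 2 with the smallest p, and for other lists up to 4 past the test. Genes that this choice of names leaves out, such as the members Psmb5 and Psmd11, were named after their values were seen. Alternatives were another pseudocount, filters and scales, array weights, age, a replicate block, fewer groups, and leaving out libraries. Some genes of the ubiquitin precursor list are not reported here.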

Additional observations from a re-analysis of the deposited data

Results flagged for a closer look

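Over the 27 named genes, 81 groups of 4 wild-type libraries were examined for a library far from the other 3, and 7 were found. Chance marks about 1 in 20 such groups. Psmd12 had 29.1 FPKM in 6-OHDA ZT0 replicate 1, against 36.8 to 38.2 FPKM in the other 3, and Psme1 had 12.1 FPKM in the same library, against 13.0 to 13.2 FPKM. Psmd8 had 104 FPKM in 6-OHDA ZT0 replicate 3, against 77.6 to 80.7 FPKM. Psmd5 had 2.67 FPKM in 6-OHDA ZT12 replicate 5, against 3.05 to 3.11 FPKM. Psmd1 and Psmd8 had 16.4 and 69.5 FPKM in sham ZT0 replicate 2, against 19.8 to 20.1 and 79.5 to 81.6 FPKM. Psme1 had 17.7 FPKM in sham ZT0 replicate 3, against 15.1 to 15.5 FPKM. The genotype change of the 6-OHDA effect, the 6-OHDA change of the time difference in wild-type muscle and the genotype change of the time difference in sham muscle passed the limma test for none of the 40 genes, with 1, 0 and 0 at an unadjusted p under 0.05.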

How the results depend on the processing

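For 6-OHDA against sham in wild-type muscle, the count of the 40 genes past the test was 9 lower on the deposited scale. It was 28, all lower, with array weights, with only the compared groups and without RE-RE sham replicates 1 and 3 and RE-RE 6-OHDA replicate 2, where 59.4%, 51.8% and 50.5% of all tested genes were called in either direction, against 34.8% as reported. It was 5, all higher, scaled by the sum of FPKM outside the mitochondrial genome and 6, all higher, by own totals. Leaving out single libraries gave 2 to 12, all lower, with 2 without sham ZT0 replicate 3, 6-OHDA ZT0 replicate 1 or 6-OHDA ZT12 replicate 6, 4 without sham ZT12 replicate 5 and 5 without sham ZT12 replicate 6. On the sum of FPKM and own totals the log2 difference of Psmc5 was 0.0601 and 0.0960. On own totals the log2 differences of Psmd7 and Psme3 were 0.0287 and 0.295. These genes lay below 0 on the deposited scale, as given above. At ZT0 the count of 0 became 1 lower when median-centred (25.0% of all tested genes called), 5 and 7 higher on the 2 totals (31.9% and 36.3%), 19 lower with array weights (48.3%), 9 lower with only the compared groups (32.9%) and 15 lower without the 3 libraries (41.0%). At ZT12 it became 23, 13 and 4 lower with the last 3 settings (57.5%, 32.5% and 10% of the 40, against 38.1%, 26.4% and 14.6%). Shares of all tested genes here count both directions. For RE-RE 6-OHDA, 2 became 1 without a filter (24.4%), 6 with own totals (5 higher, 1 lower; 34.8%), 0 with array weights, age or only the compared groups (at most 0.0234%, with 2, 2 and 1 of the 40 at an unadjusted p under 0.05), and 5 without the 3 libraries (2 higher, 3 lower; 28.1%). Leaving out single libraries gave 0 to 30. The count was 0 without sham replicates 1 or 3 or 6-OHDA replicates 1 or 4 (0.218% to 2.00% of all tested genes), 21 and 30 without sham replicates 2 and 4 (1 of each higher; 44.1% and 49.2% of all tested genes), and 13 and 5 without 6-OHDA replicates 2 and 3 (42.6% and 35.1%). RE-RE against wild-type sham gave 1 higher on each of the 2 totals, and 0 to 24 over single libraries, with 2 without wild-type sham ZT0 replicate 3 and 8 and 24 without RE-RE sham replicates 2 and 4. Single libraries also gave 0 to 5 for time in RE-RE 6-OHDA muscle (5 without replicate 1), and 0 to 1 for time in RE-RE sham muscle (1 without replicate 4), for genotype in 6-OHDA muscle (1 without RE-RE replicate 1) and for the genotype change of the 6-OHDA effect (1 without RE-RE sham replicates 2 or 4). The other comparisons had 0 calls throughout. The ratios of inducible to constitutive catalytic subunits kept their direction under every alternative run, and their exact p under 0.05 in wild-type muscle. Alternatives that rescale whole libraries cannot change a ratio within a library, so they are no check of it. The causes were not tested. For single named genes, 1052 values kept their side of the threshold, 78 passed where the reported one did not and 78 no longer passed. Another 4 were counted as changed in sign. A change of sign between values that both did not pass is not in this count, and the scale between libraries changed the sign of some. Depth limits Psmc3ip, which had as few as 27 reads. With the replicate number as a block, the counts were 5, 1 and 1 for 6-OHDA in wild-type muscle, at ZT0 and in RE-RE muscle. Where no share of all tested genes stands beside a count in this section, the count was not compared with that share. Same-numbered wild-type libraries correlated between -0.12 and 0.07, and 2 of 7 correlated best with their own number, so the correlations show no pairing by number. Their ages differed for every number but 7, where both were 12 weeks. In RE-RE groups the correlations were 0.10 at ZT0 and 0.16 at ZT12, and all 4 libraries correlated best with their own number. With 2 libraries a group, each time gives 1 independent value. Same-numbered RE-RE sham and 6-OHDA libraries differ in age (10 and 16, 11 and 12, 11 and 15, 11 and 18 weeks). They are thus not of 1 animal at 1 age, and whether the numbers mark another kind of pair is not in the labels. The block could not be fitted for time in wild-type muscle, for genotype or for the genotype change of the time difference.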
